A study of Mus musculus with 9 samples.

Results

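The 35 astrocyte genes described here were taken by symbol from the 18194 genes measured in the striatum, as 30 genes of resting, or homeostatic, astrocytes and 5 of reactive ones (Gfap, Vim, Cd44, Serpina3n and Lcn2). The 35 genes were chosen with earlier results of these data known. All 35 were measured, each by 1 probe set, the one with the highest mean over all arrays among those naming that gene alone. Astrocytes are the glial cells that clear glutamate and potassium from around synapses, pass water and ions along coupled networks, and supply neurons with glutamine, lipids and lactate. In injured or diseased brain they can become reactive, a state known for raised intermediate filament genes such as Gfap and Vim and, in strong forms, for secreted and adhesion genes such as Serpina3n, Lcn2 and Cd44. The homeostatic programme of transporters, junction proteins, enzymes and receptors can be lowered at the same time.

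Striatal RNA from 9 female mice of a C57Bl/6 / CBA strain was hybridised to whole-genome arrays, 1 array for each mouse, at 12 weeks of age. The 4 controls were wild-type, named here as mice 46, 47, 49 and 66, all aged 85 days. The other 5 were R6/2 mice, a Huntington disease model that carries a transgene with exon 1 of the human mutant huntingtin gene. In this line the transgene is driven by human huntingtin promoter sequence and is not restricted to a cell type. R62_86 was also 85 days old, and R62_95, R62_105, R62_107 and R62_109 were 83 days old. Values of single mice are listed in that order, wild-type mice first. Values are log2 levels, so a difference of 1 is a doubling, and every difference is R6/2 minus wild-type with its standard error (SE). A gene was called where limma's moderated test, adjusted by Benjamini-Hochberg over all 18194 genes, gave an adjusted p under 0.05. The number of arrays limits the precision. RNA of the whole striatum cannot tell fewer astrocytes apart from less RNA per astrocyte.

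The arrays correlated between 0.979 and 0.995 over all probe sets. The 12 measured markers of the spiny projection neurons that fill the striatum averaged 11.23 to 11.52 in wild-type mice. Of these, 11 were called lower in R6/2 mice (91.7%, beside 7.57% of all genes), with a median difference of -1.49. The means of 9 markers of cortex projection neurons ran from 6.19 to 7.12 in wild-type and from 6.90 to 7.66 in R6/2 mice. Choroid plexus markers were high in wild-type mice 47 (8.61) and 66 (8.88) and in R62_107 (7.32), and lay between 5.18 and 6.12 in the other 6. R62_95 had the highest difference between 3′ and 5′ control probe sets, 1.24 for actin and 0.40 for GAPDH, against 0.45 to 0.79 and -0.22 to -0.06 in the others.

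Many homeostatic astrocyte genes were lower in R6/2 striatum, from the deiodinase Dio2 and the glutamate transporter Slc1a2 to the gap junction gene Gja1, while of the reactive genes Vim alone passed the test. Of the 30 homeostatic genes, limma called 15 lower and 0 higher. That is 50% of them called lower, beside 7.57% of all genes. At an unadjusted p under 0.05 in limma, 20 were lower, beside 14.8% of all genes, and 0 were higher. The difference was below 0 for 26 of the 30 (86.7%; 24 to 30 under the alternative settings), beside 53.9% of all genes, and the median difference was -0.31 beside -0.02 over all genes. For 15 homeostatic genes all 5 R6/2 mice lay below all 4 wild-type mice, a pattern found in 8.08% of all genes. Of these 15, 13 were also called lower, and Pla2g7 and Tril were not called. Ednrb and Sox9 were called lower although their groups overlapped. Of the 5 reactive genes 1, Vim, was called higher, beside 9.28% of all genes, and the same gene alone had every R6/2 value above every wild-type value, beside 9.18% of all genes. The median difference of the reactive genes was 0.27. Without limma's moderation of the variance 11 homeostatic genes were called lower, beside 925 over all genes. Aldh1l1, Mfge8, Sox9 and Ednrb were then not called (adjusted p 0.0597 to 0.0879). When the probe sets of each gene were averaged, 12 were called lower, beside 1303 over all genes. Aldoc, Fgfr3 and Ednrb were then not called (adjusted p 0.0505 to 0.135). Among the brighter 50% of genes alone, 17 homeostatic genes were called lower, beside 1086 of 9097 genes.

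With age in days as a covariate, 0 of the 30 homeostatic genes and 0 of the 5 reactive ones were called, and over all genes 26 were lower and 4 higher. At an unadjusted p under 0.05 that fit had 11 homeostatic genes lower, beside 7.40% of all genes, and 1 reactive gene higher. In it R62_86 is the only one of its genotype at the wild-type age. Its mean over the 30 homeostatic genes was 8.97, below the 9.18 to 9.40 of the wild-type mice. With only 1 such mouse, age and genotype cannot be told apart here. With the mean of the cortex markers as a covariate, 1 homeostatic gene (Dio2) and 0 reactive genes were called, beside 266 lower and 189 higher over all genes, and the homeostatic median was -0.28. In that fit the differences of Aldh1l1 (-0.28), Mfge8 (-0.36) and Sox9 (-0.24) were nearer 0 than the -0.44, -0.58 and -0.53 of the fit without it, and that of Slc7a10 was -0.06. At an unadjusted p under 0.05, 14 homeostatic genes were lower there, beside 7.59% of all genes, and 1 reactive gene was higher. At like cortex means, wild-type mouse 46 (cortex 7.12) had a homeostatic mean of 9.18 and R62_95 (7.14) one of 8.91. Likewise, wild-type mouse 47 (6.90) had 9.21 and R62_107 (6.90) had 8.99. These are single mice, R62_95 had the highest 3′ difference, and wild-type mouse 47 and R62_107 were rich in choroid plexus transcripts. The part of cortical tissue in the astrocyte gene differences was not tested. With the choroid plexus mean as a covariate 12 homeostatic genes were called lower, beside 1039 over all genes. Acsbg1 was gained (adjusted p 0.0399) and Glul, Ednrb, Clu and Sox9 were lost (adjusted p 0.0524 to 0.0750). Leaving out the 3 arrays with the highest choroid plexus means leaves 2 wild-type and 4 R6/2 mice. In that fit 6 homeostatic genes were called lower (Slc1a2, Slc4a4, Dio2, Ntsr2, Ednrb and F3), beside 489 over all genes, and the homeostatic median was -0.41.

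**Figure D1:**
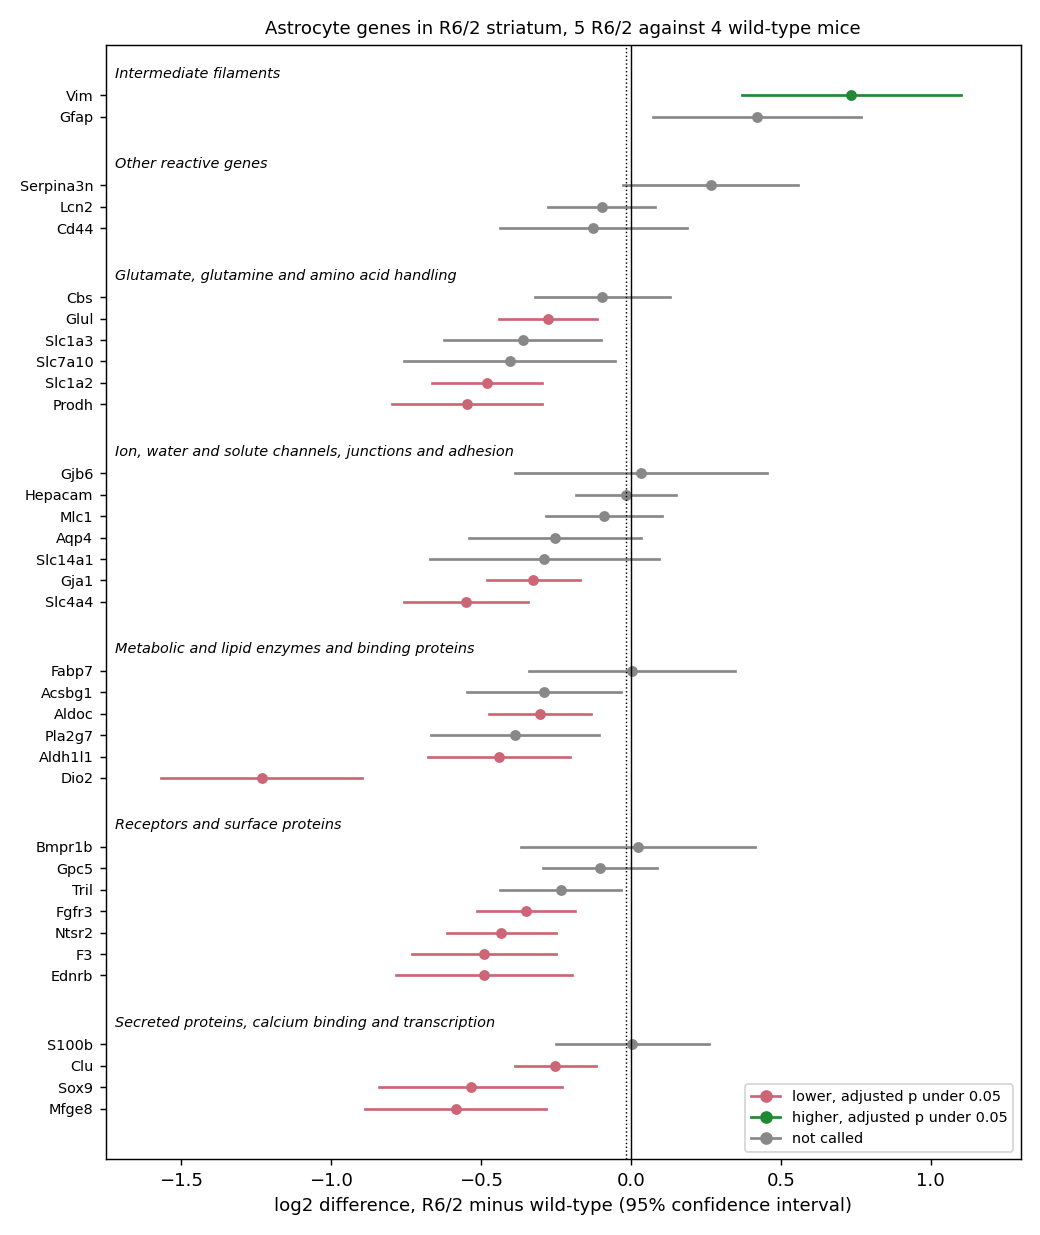
Log2 difference, R6/2 minus wild-type, of each astrocyte gene (points) with its 95% confidence interval (lines), grouped by role; the dotted line marks the median of all genes. Dio2 lies furthest to the left at -1.23, Vim furthest to the right at 0.74, and 15 homeostatic genes are coloured as lower.

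Among the 6 genes that handle glutamate, glutamine and other amino acids, 3 were called lower (50%, beside 7.57% of all genes). Slc1a2 encodes GLT-1, the main astrocyte glutamate transporter. Its log2 level was 12.56, 12.29, 12.58 and 12.63 in the wild-type mice, and 12.00, 12.07, 12.14, 12.08 and 11.88 in the R6/2 mice. The groups did not overlap, and the nearest values were those of wild-type mouse 47 and R62_105. Slc1a2 fell by 0.48 ± 0.08 (limma adjusted p 0.00354), to 0.717 of the wild-type level. A dimmer probe set of Slc1a2 fell by 0.86 ± 0.15 (adjusted p 0.00506 over all probe sets), and the other 3 were not called.

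The 250 bases before the RefSeq start of Slc1a2 (GRCm38.p6, chr2:102706188-102706437, plus strand) are printed 5′ to 3′ because Slc1a2 is the glutamate transporter that was called. Capitals mark 1 match to GCCAA, the reverse strand of the motif TTGGC of nuclear factor I (NFI), a family that acts in astrocyte development, beginning 114 bases before the start.
Slc1a2: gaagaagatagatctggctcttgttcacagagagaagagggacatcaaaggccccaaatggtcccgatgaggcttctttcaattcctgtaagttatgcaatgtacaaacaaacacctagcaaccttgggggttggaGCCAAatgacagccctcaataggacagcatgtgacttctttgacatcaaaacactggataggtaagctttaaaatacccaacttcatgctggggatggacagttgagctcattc
TTGGC or GCCAA occurs in 41.9% of the 27025 RefSeq promoters searched.

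Prodh, a mitochondrial enzyme that starts proline breakdown, was 7.46, 7.48, 7.92 and 7.51 in the wild-type mice and 6.93, 7.29, 7.12, 6.98 and 6.90 in the R6/2 mice. Every R6/2 value lay below every wild-type value, with wild-type mouse 49 standing above its group. Prodh fell by 0.55 ± 0.11 (limma adjusted p 0.00875), to 0.685 of the wild-type level. Glul, glutamine synthetase, was nearly equal in the wild-type mice, at 12.44, 12.41, 12.41 and 12.37, and lower in each R6/2 mouse, at 12.13, 11.91, 12.25, 12.18 and 12.20. It fell by 0.28 ± 0.07 (limma adjusted p 0.0272), and its other probe set was called lower too. The call of Glul ended without wild-type mouse 46, 47 or 66 or R62_86 (adjusted p 0.0514 to 0.0636).

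Slc1a3 encodes GLAST, the other astrocyte glutamate transporter. It was 10.21, 10.15, 10.24 and 10.05 in the wild-type mice and 9.86, 9.37, 9.84, 10.05 and 9.88 in the R6/2 mice. R62_107 reached the lowest wild-type mouse, and R62_95 lay well below the rest. The difference was -0.36 ± 0.12 (limma adjusted p 0.0627) and passed without R62_95 (-0.25, adjusted p 0.0401) or R62_107 (-0.42, adjusted p 0.0381). A second bright probe set of Slc1a3 was called lower (-0.35 ± 0.08, adjusted p 0.0170 over all probe sets), with no overlap. None of its other probe sets was called, bright ones at -0.24 ± 0.13 and -0.22 ± 0.10 included (limma adjusted p 0.271 and 0.204). Slc7a10, which carries D-serine and glycine, differed by -0.40 ± 0.16 (adjusted p 0.111), with R6/2 mice at 7.27 to 7.96 and wild-type mice at 7.79 to 8.39. Cbs, an enzyme of homocysteine removal, gave -0.09 ± 0.10 with a 95% confidence interval from -0.32 to 0.13.

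**Figure D2:**
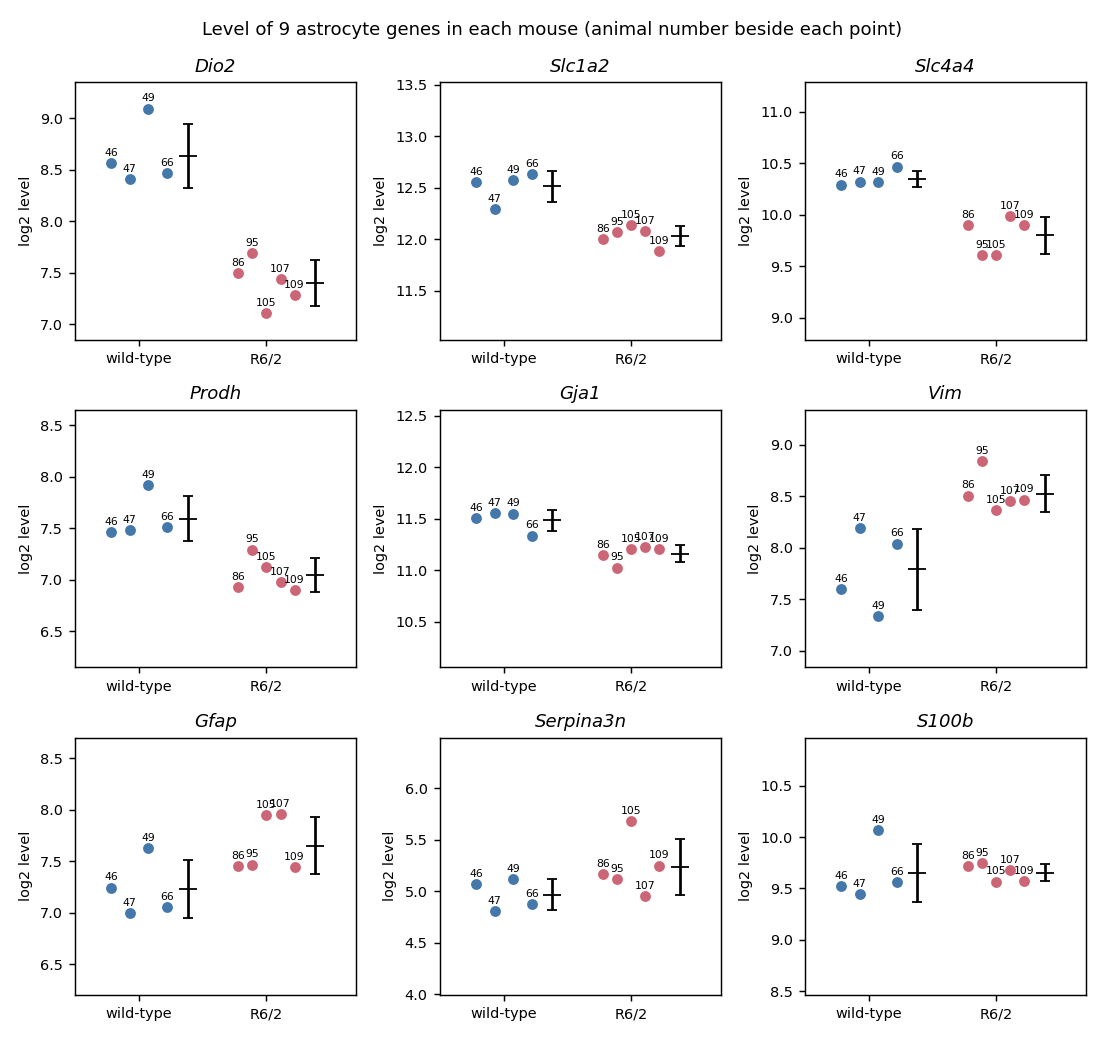
Log2 level of 9 astrocyte genes in each of the 4 wild-type and 5 R6/2 mice, with the animal number above each point and the group mean ± SD beside it; all panels span 2.5 on the log2 scale. The groups are apart for Dio2, Slc1a2, Slc4a4, Prodh, Gja1 and Vim, and overlap for Gfap, Serpina3n and S100b.

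Of the 7 genes for channels, transport of ions, water and solutes, junctions and adhesion, 2 were called lower (28.6%, beside 7.57% of all genes). Slc4a4, a sodium bicarbonate cotransporter that sets pH in and around astrocytes, was 10.29, 10.32, 10.32 and 10.47 in the wild-type mice and 9.90, 9.61, 9.61, 9.99 and 9.90 in the R6/2 mice. The gap between the groups was wider than the range of the wild-type mice. Slc4a4 fell by 0.55 ± 0.09 (limma adjusted p 0.00326), to 0.683 of the wild-type level, and 4 of its 5 probe sets were called lower, by 0.49 to 0.95. The fifth was dim, at 3.51 in wild-type mice.

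Gja1, connexin 43, the main gap junction protein of astrocytes, was 11.51, 11.55, 11.55 and 11.34 in the wild-type mice. In the R6/2 mice it was 11.15, 11.03, 11.21, 11.23 and 11.21. The groups did not overlap, with wild-type mouse 66 and R62_107 nearest to each other. Gja1 fell by 0.32 ± 0.07 (limma adjusted p 0.0105), and 4 of its 6 probe sets were called lower. The 250 bases before its RefSeq start (GRCm38.p6, chr10:56377050-56377299, plus strand) are shown because an AP-1 motif lies close to the start. Capitals mark that match to TGANTCA, the motif bound by Fos and Jun factors, beginning 19 bases before the start.
Gja1: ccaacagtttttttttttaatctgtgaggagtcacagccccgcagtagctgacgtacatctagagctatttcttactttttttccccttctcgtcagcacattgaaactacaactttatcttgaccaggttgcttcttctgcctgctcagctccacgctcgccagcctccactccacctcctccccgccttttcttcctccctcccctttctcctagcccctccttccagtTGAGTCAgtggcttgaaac
TGANTCA, which reads the same on both strands, occurs in 6.85% of all promoters searched and in 2 of the 31 astrocyte genes with a promoter in the table, Gja1 and F3, both called lower.

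The other 5 genes of this role were not called. Gjb6, connexin 30, gave 0.04 ± 0.19 with a 95% confidence interval from -0.38 to 0.46, and it varied widely within wild-type mice, from 7.66 to 8.57. Aqp4, the water channel of astrocyte endfeet, gave -0.25 ± 0.13 (limma adjusted p 0.217), and Slc14a1, a urea transporter, gave -0.29 ± 0.17 (limma adjusted p 0.288). Mlc1 and Hepacam, whose proteins form an adhesion complex at endfeet, gave -0.09 ± 0.09 (95% confidence interval -0.28 to 0.10) and -0.01 ± 0.08 (-0.18 to 0.15). For these 2 genes the interval leaves out a fall as large as that of Gja1.

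Of the 6 metabolic and lipid genes 3 were called lower (50%, beside 7.57% of all genes), and Dio2 had the largest difference of all 35 genes. Dio2 encodes type 2 deiodinase, which turns thyroxine into the active thyroid hormone T3 and in brain is made mainly by glia. It was 8.56, 8.41, 9.09 and 8.47 in the wild-type mice and 7.50, 7.69, 7.10, 7.43 and 7.28 in the R6/2 mice. The highest R6/2 value, that of R62_95, lay well below the lowest wild-type value, that of mouse 47. Dio2 fell by 1.23 ± 0.15 (limma adjusted p 0.000582), to 0.426 of the wild-type level, and all 3 of its probe sets were called lower, by 0.73 to 1.32. With the cortex marker mean as a covariate it fell by 1.03 ± 0.21 (limma adjusted p 0.0320), and with age as a covariate the difference was -1.14 ± 0.26 (limma adjusted p 0.111).

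The promoter of Dio2 is shown because Dio2 had the largest fall and because it alone of the 31 astrocyte genes with a promoter in the table holds a complete cAMP response element, TGACGTCA, which reads the same on both strands and is bound by CREB factors. These are the 250 bases before the RefSeq start (GRCm38.p6, chr12:90739039-90739288, minus strand). Capitals mark the TGACGTCA, beginning 95 bases before the start, and an NFI motif GCCAA, beginning 119 bases before it.
Dio2: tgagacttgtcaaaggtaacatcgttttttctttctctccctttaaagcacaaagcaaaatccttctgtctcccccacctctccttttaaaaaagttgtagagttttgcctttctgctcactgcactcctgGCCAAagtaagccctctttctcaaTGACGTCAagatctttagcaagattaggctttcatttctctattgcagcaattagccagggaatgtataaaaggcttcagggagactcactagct
TGACGTCA occurs in 1.60% of all promoters searched.

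Aldh1l1, a folate enzyme widely used to mark astrocytes, was 8.30 to 8.74 in wild-type and 7.82 to 8.23 in R6/2 mice, with no overlap, and fell by 0.44 ± 0.11 (limma adjusted p 0.0185). Aldoc, the glycolytic enzyme aldolase C, was 12.69 to 13.02 in wild-type and 12.45 to 12.61 in R6/2 mice and fell by 0.30 ± 0.08 (limma adjusted p 0.0227). Its call ended without R62_86 (-0.29, adjusted p 0.0546). Pla2g7, an enzyme that degrades platelet-activating factor, was 10.04 to 10.27 in wild-type mice and lower in each R6/2 mouse, at 9.90, 9.27, 9.92, 9.85 and 9.87. R62_95 lay far below its group, and the difference of -0.38 ± 0.13 was not called (limma adjusted p 0.0627). Without that mouse it was -0.26 and passed (adjusted p 0.0232). Acsbg1, which activates long fatty acids, gave -0.29 ± 0.12 (limma adjusted p 0.116). Fabp7, a fatty acid binding protein of young and radial glia, gave 0.00 ± 0.16, with an interval from -0.34 to 0.35, and R62_105 stood apart at 8.85 beside 9.48 to 9.61 in the other 4.

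Among the 7 receptors and surface proteins 4 were called lower (57.1%, beside 7.57% of all genes). Ntsr2, a neurotensin receptor found on astrocytes, was 10.59, 10.69, 10.57 and 10.75 in the wild-type mice and 10.25, 10.15, 10.09, 10.46 and 10.15 in the R6/2 mice. It fell by 0.43 ± 0.08 with no overlap (limma adjusted p 0.00605). Fgfr3, a fibroblast growth factor receptor of the astrocyte lineage, was close to uniform in R6/2 mice, at 8.51 to 8.63, against 8.80 to 9.12 in wild-type mice. It fell by 0.35 ± 0.07 (limma adjusted p 0.00953). F3, tissue factor, the starter of the clotting cascade, was 7.88 to 8.33 in wild-type and 7.40 to 7.79 in R6/2 mice and fell by 0.49 ± 0.11 (limma adjusted p 0.0122).

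Ednrb, the endothelin B receptor, fell by 0.49 ± 0.13 (limma adjusted p 0.0290), although R62_107 at 8.54 lay above wild-type mouse 66 at 8.42. Its call ended in 6 of the 9 fits that left out 1 mouse, those without wild-type mouse 46, 47 or 49 or R62_86, R62_95 or R62_105 (adjusted p 0.0582 to 0.0739). Tril, a partner of Toll-like receptors, gave -0.23 ± 0.09 (limma adjusted p 0.108), with the highest R6/2 value (7.739) just under the lowest wild-type value (7.740). Gpc5, a glypican, gave -0.10 ± 0.09, with an interval from -0.29 to 0.09. Bmpr1b, a receptor for bone morphogenetic proteins, gave 0.02 ± 0.18, and its R6/2 mice spread from 5.75 to 6.79 around wild-type mice at 6.32 to 6.49.

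Of the 4 secreted, calcium-binding and transcription genes 3 were called lower (75%, beside 7.57% of all genes). Mfge8, a secreted bridge for the uptake of dying cells, was 10.04, 10.04, 10.34 and 10.04 in the wild-type mice and 9.52, 9.94, 9.19, 9.61 and 9.38 in the R6/2 mice. R62_95 came near the wild-type mice without reaching them, and Mfge8 fell by 0.58 ± 0.14 (limma adjusted p 0.0149), to 0.667 of the wild-type level. Clu, clusterin, an extracellular chaperone that neurons and choroid plexus also make, was 12.35 to 12.48 in wild-type and 12.08 to 12.25 in R6/2 mice. It fell by 0.25 ± 0.06 (limma adjusted p 0.0180), and all 4 of its probe sets were called lower. With the choroid plexus mean as a covariate the difference was again -0.25, without a call (limma adjusted p 0.0524).

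Sox9, a transcription factor of astrocytes and ependyma, was 6.90, 6.82, 7.09 and 7.29 in the wild-type mice and 6.56, 6.88, 6.27, 6.51 and 6.23 in the R6/2 mice. R62_95 lay above wild-type mouse 47. Sox9 fell by 0.53 ± 0.14 (limma adjusted p 0.0238), a call that ended without wild-type mouse 49 or 66 or R62_105 or R62_109 (adjusted p 0.0520 to 0.0691). With the cortex mean as a covariate the difference of Sox9 was -0.24 (limma adjusted p 0.483). S100b, a calcium-binding protein that oligodendrocytes also make, gave 0.01 ± 0.12, with an interval from -0.25 to 0.26. Its highest value, 10.06, was that of wild-type mouse 49, and the other 8 mice lay between 9.45 and 9.74.

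Of the reactive genes, both intermediate filament genes had higher means in R6/2 mice, and 1 was called. Vim, vimentin, was 7.60, 8.19, 7.34 and 8.04 in the wild-type mice and 8.51, 8.84, 8.37, 8.45 and 8.47 in the R6/2 mice. Every R6/2 value lay above every wild-type value, and the wild-type mice differed among themselves by more than the R6/2 mice did. Vim rose by 0.74 ± 0.17 (limma adjusted p 0.0124), to 1.67 times the wild-type level. All 3 of its probe sets were called higher, by 0.74, 0.65 and 0.93. Without limma's moderation of the variance the call ended (adjusted p 0.0571).

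Vim is also made by endothelium, ependyma, choroid plexus and meninges. The markers of endothelial and mural cells averaged 7.03, 7.16, 6.72 and 7.16 in the wild-type mice and 7.06, 7.20, 6.92, 6.94 and 6.91 in the R6/2 mice. R62_95 had the highest endothelial mean and the highest Vim of the R6/2 mice. Wild-type mice 47 and 66, nearly equal in endothelial mean, had the highest Vim of their group (8.19 and 8.04). Both were also rich in choroid plexus transcripts (8.61 and 8.88). R62_107, the R6/2 mouse richest in these (7.32), had a Vim level of 8.45, below that of R62_95. The endothelial mean differed by -0.01 between the genotypes, and 1 of 14 markers was called, lower (7.14%, beside 7.57% of all genes). The ependymal mean was 5.80 to 6.46 in wild-type and 5.28 to 6.01 in R6/2 mice. All 6 ependymal markers had lower means in R6/2 mice, with a median of -0.51, and 1 was called lower (16.7%, beside 7.57% of all genes). At an unadjusted p under 0.05 in limma, 5 of the 6 were lower, beside 14.8% of all genes. With the choroid plexus mean as a covariate Vim rose by 0.94 ± 0.14 (limma adjusted p 0.00329), and without the 3 arrays of highest choroid plexus mean by 1.08 ± 0.15 (limma adjusted p 0.0146). The 250 bases before the RefSeq start of Vim (GRCm38.p6, chr2:13574061-13574310, plus strand) are shown because Vim is the reactive gene that was called. Capitals mark 2 NFI motifs TTGGC, beginning 93 and 16 bases before the start.
Vim: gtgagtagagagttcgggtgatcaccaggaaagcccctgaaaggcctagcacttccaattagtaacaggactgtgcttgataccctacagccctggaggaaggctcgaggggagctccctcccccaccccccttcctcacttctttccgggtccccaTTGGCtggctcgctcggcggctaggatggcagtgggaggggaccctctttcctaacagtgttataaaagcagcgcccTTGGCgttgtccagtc
Neither strand of these bases held TTCNNNGAA, a motif of STAT factors, which occurs in 7.14% of all promoters searched and in 5 of the 31 astrocyte genes with a promoter (Acsbg1, Ntsr2, Pla2g7, Prodh and Slc1a3), 2 of them called lower.

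Gfap, the intermediate filament most used as a sign of reactive astrocytes, was 7.24, 6.995, 7.62 and 7.06 in the wild-type mice and 7.45, 7.47, 7.95, 7.96 and 7.44 in the R6/2 mice. The groups overlapped only through wild-type mouse 49, which lay above R62_86, R62_95 and R62_109. The difference was 0.42 ± 0.16, with a 95% confidence interval from 0.07 to 0.77 (limma adjusted p 0.0941). Without wild-type mouse 49 it was 0.55 and passed (limma adjusted p 0.0293), while it was 0.14 without the 3 arrays of highest choroid plexus mean (limma adjusted p 0.673) and 0.22 with age as a covariate (limma adjusted p 0.784). A dimmer probe set of Gfap was called higher without leaving out any mouse (0.56 ± 0.16, adjusted p 0.0415 over all probe sets), with no overlap, and the third gave 0.39 ± 0.33.

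The other 3 reactive genes were not called, nor did they pass at an unadjusted p under 0.05. Serpina3n, a secreted protease inhibitor, was 5.07, 4.81, 5.12 and 4.88 in the wild-type mice and 5.17, 5.12, 5.68, 4.95 and 5.25 in the R6/2 mice. R62_105 was the highest, and the difference was 0.27 ± 0.13 (limma adjusted p 0.198), with an interval from -0.02 to 0.56. With the cortex mean as a covariate it was 0.05 (limma adjusted p 0.925). Cd44, the hyaluronan receptor, gave -0.13 ± 0.14, with an interval from -0.44 to 0.19, and its 4 probe sets all had lower means in R6/2 mice without a call. Lcn2, lipocalin 2, lay between 2.86 and 3.20 in all 9 mice, around the 5th percentile of all array values (3.10), so these arrays held little signal for it.

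Across every probe set of the 35 genes, 30 of 82 were called lower and 4 higher (41.5% in all), beside 12.2% of all probe sets called in either direction. All 30 lower calls were among the 70 probe sets of homeostatic genes, and all 4 higher calls among the 12 of reactive genes. Of the 40 homeostatic probe sets that were not chosen for their gene, 15 were called, all lower. Probe sets of 1 gene share the same RNA, so they bear on the probes and not on the mice.

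**Figure D3:**
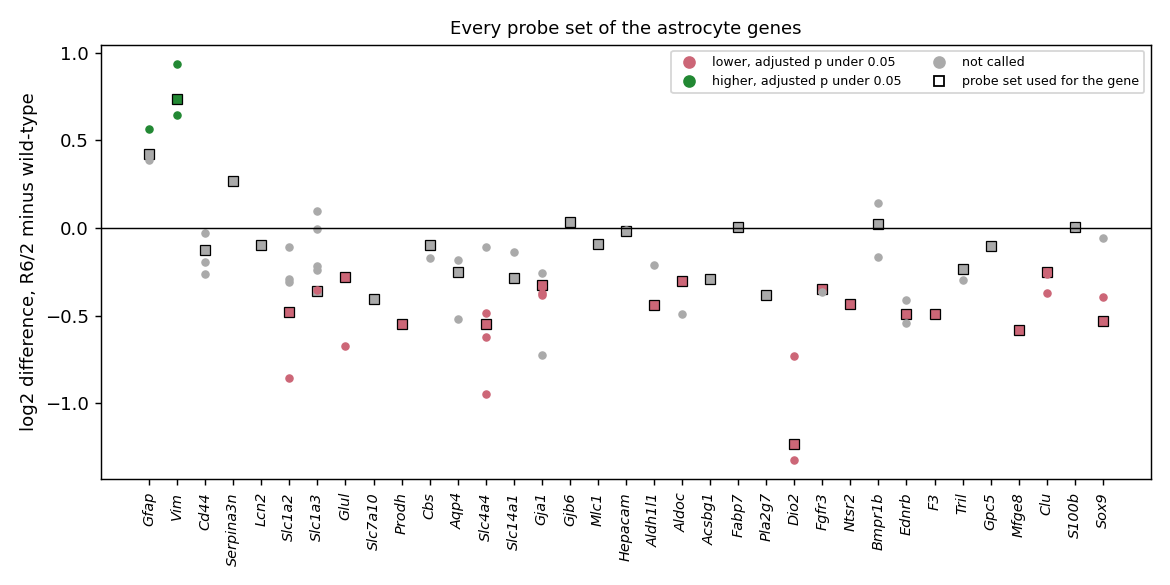
Log2 difference, R6/2 minus wild-type, of all 82 probe sets of the 35 astrocyte genes, with the probe set used for each gene as a square and colours for calls over all probe sets. The probe sets of Dio2, Glul and Clu are all called lower and those of Vim all higher, while Slc1a3 and Gfap each have 1 called probe set that is not the brightest.

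For each mouse, the 30 homeostatic and the 5 reactive genes were averaged as a description. The homeostatic mean was 9.18, 9.21, 9.40 and 9.19 in the wild-type mice and 8.97, 8.91, 8.84, 8.99 and 8.89 in the R6/2 mice. The reactive mean was 5.61, 5.70, 5.70 and 5.62 in the wild-type mice and 5.78, 5.93, 5.95, 5.94 and 5.89 in the R6/2 mice. Neither mean overlapped between the genotypes. The reactive genes did not move together. Vim (0.74) and Gfap (0.42) had the largest differences and Serpina3n gave 0.27, while Cd44 (-0.13) and Lcn2 (-0.10) had lower means in R6/2 mice. The homeostatic mean minus the reactive mean averaged 3.59 ± 0.08 (SD, n = 4) over the wild-type mice. Over the R6/2 mice it averaged 3.02 ± 0.11 (SD, n = 5), which is -0.56 relative to wild-type. R62_86, the one aged 85 days, had the highest of the R6/2 values at 3.19, and the lowest wild-type value was 3.51.

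**Figure D4:**
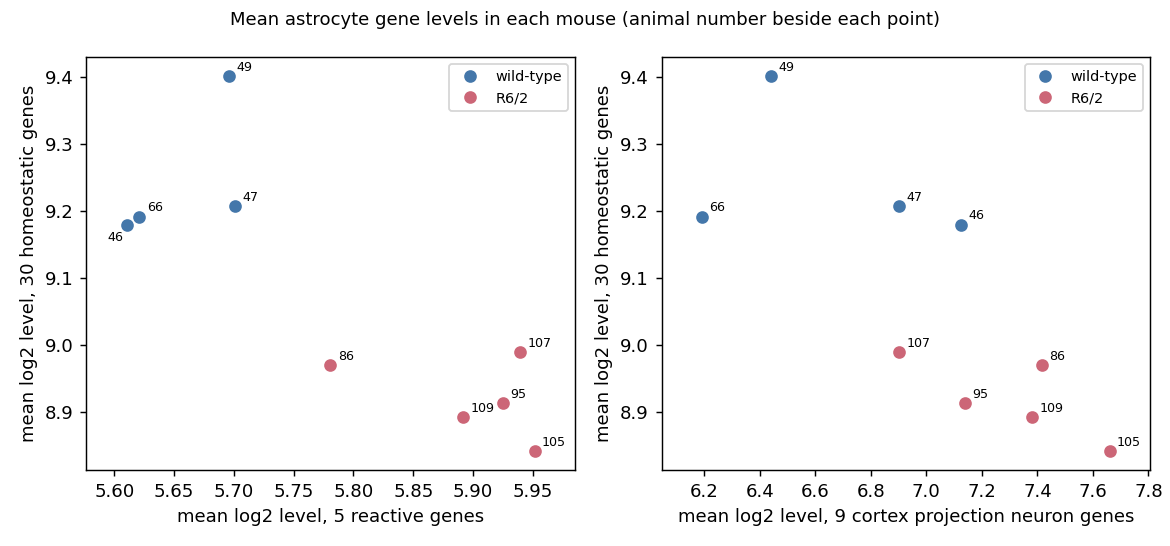
Mean log2 level of the 30 homeostatic genes in each mouse, against the mean of the 5 reactive genes (left) and against the mean of 9 cortex projection neuron markers (right), with animal numbers beside the points. R6/2 mice lie below wild-type mice on the vertical axis in both panels, wild-type mouse 49 is highest at 9.40, and the genotypes share a range of cortex means between 6.90 and 7.12.

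The order of the mice within a genotype varied between genes. Wild-type mouse 49 was the highest of its group in 17 of the 30 homeostatic genes and the lowest in 2, and its microglia marker mean was also the highest, at 8.15 beside 7.60 to 7.71. Wild-type mouse 66 was the lowest of its group in 12 homeostatic genes. Among R6/2 mice, R62_105 was the lowest in 12 and the highest in 6, and R62_107 the highest in 10 and the lowest in 1. R62_105 also had the lowest mean of spiny neuron markers (9.43 beside 9.89 to 10.32) and the highest mean of cortex markers (7.66). Without wild-type mouse 49, 13 homeostatic genes were called lower, beside 1277 over all genes.

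Markers of other cells of the tissue were compared in the same way. Microglia markers averaged 7.60 to 8.15 in wild-type and 7.10 to 7.53 in R6/2 mice. Of 14 microglia markers 5 were called lower (35.7%, beside 7.57% of all genes), with a median of -0.53. Of 11 oligodendrocyte markers 3 were called lower (27.3%), with means of 9.60 to 9.86 in wild-type and 9.32 to 9.90 in R6/2 mice. Of 8 meningeal and 5 blood markers limma called 0 (0 and 1 at an unadjusted p under 0.05). All 8 choroid plexus markers had lower means in R6/2 mice, and limma called 0 of them (0 also at an unadjusted p under 0.05). The part of these cells in the differences of the astrocyte genes, Vim included, was not tested.

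A further 24 astrocyte genes, which are not among the 35, were compared in the same way. Like the 35, they were chosen with earlier results of these data known, so they are no independent check. Of these 10 were called lower (41.7%, beside 7.57% of all genes) and 1 higher (4.17%, beside 9.28%), with a median of -0.26 beside -0.02 over all genes. Crym, which binds thyroid hormone in the cytosol and is also made by striatal neurons, was 9.67 to 10.05 in the wild-type mice and 8.18 to 9.02 in the R6/2 mice. The groups were far apart, and Crym fell by 1.34 ± 0.16 (limma adjusted p 0.000509), to 0.395 of the wild-type level. Id4, an inhibitor of basic helix-loop-helix factors, fell by 0.98 ± 0.14, Ttyh1, a membrane protein linked to anion channels, by 0.66 ± 0.09, and Slco1c1, a carrier of thyroxine, by 0.59 ± 0.13. Fam107a fell by 0.56 ± 0.10, Gldc, of the glycine cleavage system, by 0.34 ± 0.08, Apoe, the lipid carrier of brain, by 0.32 ± 0.07, and Gpr37l1, an astrocyte receptor, by 0.30 ± 0.07 (limma adjusted p 0.000837 to 0.0171 for these 7). Cldn10 fell by 0.56 ± 0.16 and Phkg1 by 0.45 ± 0.12 (limma adjusted p 0.0357 and 0.0298). Cldn10 gave -0.22 with age as a covariate (limma adjusted p 0.759), and with the cortex mean Phkg1 gave -0.23 and Slco1c1 -0.39, neither with a call.

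Slc25a18, a mitochondrial glutamate carrier, rose by 0.75 ± 0.20 (limma adjusted p 0.0251), but gave 0.20 with the cortex mean as a covariate (limma adjusted p 0.575). Its call also ended with age as a covariate (adjusted p 0.452), with the choroid plexus mean (adjusted p 0.0880), and without the 3 arrays of highest choroid plexus mean (adjusted p 0.112). Leaving out 1 mouse ended the calls of Cldn10 in 7 of 9 fits (all but those without R62_86 or R62_95), of Phkg1 in 5 (without wild-type mouse 49 or 66 or R62_95, R62_105 or R62_109) and of Slc25a18 in 4 (without wild-type mouse 49 or 66 or R62_105 or R62_109), with adjusted p from 0.0517 to 0.0835. The nearest genes without a call were Lcat, which esterifies cholesterol (-0.53 ± 0.17, limma adjusted p 0.0593), and Chrdl1, a secreted antagonist of bone morphogenetic proteins (-0.32 ± 0.12, limma adjusted p 0.0934). Kcnj10, the potassium channel Kir4.1, named here after its value was seen, gave 0.08 ± 0.15 (limma adjusted p 0.778). With age as a covariate, limma called 0 of these 24 genes lower (6 at an unadjusted p under 0.05, beside 7.40% of all genes). With the cortex mean 3 were called lower, beside 266 over all genes. Without the 3 arrays of highest choroid plexus mean 4 were called lower, beside 489 over all genes.

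Over 3 further lists of genes known from reactive astrocytes after injury, 2 of 29 measured genes were called higher (6.90%, beside 9.28% of all genes) and 1 lower (3.45%, beside 7.57%). Of 8 genes raised in several forms of reactivity, beside Gfap, Vim and the others above, 2 were called higher (25%, beside 9.28% of all genes) and 0 lower, with a median of 0.01. S1pr3, a receptor for sphingosine 1-phosphate, was 6.50, 6.51, 6.25 and 6.57 in the wild-type mice and 7.11, 7.20, 7.34, 7.16 and 7.22 in the R6/2 mice. It rose by 0.75 ± 0.08 (limma adjusted p 0.000304) with no overlap, and by 0.45 when its probe sets were averaged, again with a call. Osmr, the oncostatin M receptor, rose by 0.32 ± 0.09 (limma adjusted p 0.0331), a call that ended in 6 of 9 fits leaving out 1 mouse, those without wild-type mouse 46 or 49 or R62_86, R62_95, R62_105 or R62_109 (adjusted p 0.0515 to 0.0846). The next were Steap4 (-0.14, adjusted p 0.180) and Cxcl10 (0.14, adjusted p 0.233).

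Of 9 measured genes named A1, after a state evoked by inflammatory signals, 1 was called, lower (11.1%, beside 7.57% of all genes), and the median was 0.05. That gene, Fbln5, an extracellular matrix protein, fell by 0.94 ± 0.11 (limma adjusted p 0.000511), against the direction its list is known for. When its probe sets were averaged Fbln5 fell by 0.48, again with a call. Iigp1 (0.36, adjusted p 0.0861) and Amigo2 (-0.19, adjusted p 0.137) came next. Of 12 genes named A2, after a state seen in ischaemia, limma called 0 (1 at an unadjusted p under 0.05), with a median of -0.04, and Clcf1 (0.19, adjusted p 0.151) and S100a10 (0.52, adjusted p 0.220) were nearest.

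STAT3 carries cytokine signals that raise Gfap and Vim in reactive astrocytes. Of 11 measured genes of its pathway 2 were called higher (18.2%, beside 9.28% of all genes) and 0 lower, with a median of -0.09. Jak1, a kinase below cytokine receptors, rose by 0.29 ± 0.07 (limma adjusted p 0.0127), and Lifr, the receptor of leukaemia inhibitory factor, by 0.36 ± 0.09 (limma adjusted p 0.0226). The call of Lifr ended without wild-type mouse 47 or 66 or R62_86 (adjusted p 0.0537 to 0.0624), and those of Jak1, Lifr and Osmr all ended when arrays were centred on housekeeping genes (adjusted p 0.106, 0.0741 and 0.176). When the probe sets of each gene were averaged, the differences were 0.13 for Jak1, 0.078 for Lifr and 0.12 for Osmr, and none of these 3 genes was called (limma adjusted p 0.637, 0.385 and 0.129). Il6 (-0.27, adjusted p 0.0547) and Jak2 (-0.24, adjusted p 0.105) were the nearest without a call. Il6 averaged 3.25 in wild-type and 2.98 in R6/2 mice, around the 5th percentile of all array values (3.10). These arrays held little signal for it. Stat3 itself, named here after its value was seen, gave 0.21 ± 0.09 (limma adjusted p 0.130).

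When each array was centred on 7 housekeeping genes, the calls over all genes went from 1688 higher and 1378 lower to 660 higher and 1435 lower, and the overall median went from -0.02 to -0.09. Under it 17 homeostatic genes were called lower, with Slc1a3 and Pla2g7 added, and Vim stayed called at 0.66 (limma adjusted p 0.0352).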

How the data were processed

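Each of the 9 arrays carried 45101 probe sets, and the deposited values were log2 expression levels that the authors made with RMA in the affy package, as the submitters' processing notes list. RMA gives all arrays 1 distribution of intensities, so a difference is read against the rest of its array. Per the labels' protocols, the biotin label came from in vitro transcription. Software versions and the set of arrays normalized together were not stated in the sources used. The labels name separate mice, and each mouse was 1 replicate.

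The platform annotation named exactly 1 gene for 34958 of 35890 listed probe sets and several for 932. Of the probe sets of a gene, the one with the highest mean was used (18194 genes), with no filter on dim values, and 9012 genes, 22 of the 35 astrocyte genes among them, had more than 1. Gene symbols were updated through RefSeq identifiers (34754 probe sets matched).

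Genotype was the only term in limma 3.58.1 (lmFit and eBayes, R 4.3.3), two-sided, and p was adjusted by Benjamini-Hochberg over all genes, with calls under 0.05. The script was tested on simulated data. Intervals are at 95%. The comparison of every probe set was adjusted over all 34958. Lists were described by counts and medians and not tested. The astrocyte genes and the lists were chosen with earlier results of these data known. All 35 genes are named. Of each further astrocyte list, the text names the genes past the threshold and the 2 next by p, and Kcnj10 and Stat3 besides. List genes without a value were not analysed here.

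Promoters are the 250 bases before the most upstream start in RefSeq (GRCm38.p6), found by symbol for 31 of the 35 genes and searched on both strands for the motifs spelled out in the text, which do not overlap in the promoters printed. Alternatives changed the probe set rule, brightness filter, scaling, variance model, covariates (age, cortex markers, choroid plexus markers) or the arrays used, 1 choice at a time. Figures were drawn with matplotlib 3.10.9.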

Additional observations from a re-analysis of the deposited data

Results flagged for a closer look

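In 5 of 70 groups of astrocyte gene values, 1 mouse stood far from the others of its genotype by Dixon's test, which chance alone does in about 1 of 20 groups (5%). Prodh was 7.92 in wild-type mouse 49 beside 7.46 to 7.51 in the other 3. Mfge8 was 10.34 in the same mouse beside 10.04 in each of the others. Slc4a4 was 10.47 in wild-type mouse 66 beside 10.29 to 10.32. Fabp7 was 8.85 in R62_105 beside 9.48 to 9.61 in the other 4, and Pla2g7 was 9.27 in R62_95 beside 9.85 to 9.92. All but Fabp7 and Pla2g7 stood out on the high side in wild-type mice. The mean of the 30 homeostatic genes was 9.40 in wild-type mouse 49 beside 9.18 to 9.21 in the other wild-type mice.

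R62_95 stood apart in the control probe sets, with a 3′ minus 5′ difference of 1.24 for actin (0.47 to 0.58 in the other R6/2 mice) and 0.40 for GAPDH (-0.22 to -0.15). Its part in the low Pla2g7 value was not tested.

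In 2 genes that were not called, a probe set outside the main comparison passed. A Gfap probe set was 0.56 higher in R6/2 mice (limma adjusted p 0.0415 over all probe sets), and a Slc1a3 probe set differed by -0.35 (limma adjusted p 0.0170 over all probe sets).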

How the results depend on the processing

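No paired analysis was run, because the labels name separate mice and state no pairs among them. With age as a covariate, limma called 0 homeostatic, 0 reactive, 0 further astrocyte and 0 further reactive or STAT3 pathway genes (11, 1, 6 and 7 at an unadjusted p under 0.05), and 26 lower and 4 higher over all genes. R62_86 alone then shares the wild-type age, so age and genotype cannot be told apart. The reactive median was 0.20 there, and the homeostatic minus reactive difference was -0.40. With the cortex mean, 1 homeostatic, 0 reactive, 3 further astrocyte and 2 further reactive or STAT3 genes were called (266 lower and 189 higher over all genes), and the reactive median was 0.16. Without the 3 arrays of highest choroid plexus mean the counts were 6, 1, 4 and 3 (489 lower and 396 higher over all genes), with medians of -0.41 for homeostatic and 0.14 for reactive genes. That setting has fewer mice. The choroid plexus mean as a covariate gave 1058 higher calls over all genes and a reactive median of 0.13.

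Reactive genes called numbered 2 with each probe set tested alone (median 0.33), with array weights and without the 2 arrays of highest 3′ difference, R62_95 and wild-type mouse 49 (median 0.35). Over all genes 1784, 2116 and 1877 were called higher in these settings, in that order, beside 1688 in the main one. Reactive calls numbered 0 without moderation (1 at an unadjusted p under 0.05), where 1081 genes were higher. In the brighter 50% of genes the reactive median was 0.58 and the homeostatic minus reactive difference -0.92, since the dim reactive genes drop out. Centring on housekeeping genes gave 660 higher calls and a reactive median of 0.19. The further reactive and STAT3 calls, 5 in the main setting, were 3 with the mean of all probe sets, the brighter 50%, housekeeping centring and no moderation. The causes not stated here were not tested.

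Leaving out 1 mouse at a time gave 12 to 16 homeostatic calls, 1 or 2 reactive calls and 3 to 6 further reactive or STAT3 calls. The reactive median was 0.16 to 0.34, and over all genes 1022 to 1388 were called lower and 1122 to 1703 higher. In these fits the uncalled genes near 0 changed sign: Gjb6 (-0.081 to 0.22), Fabp7 (-0.063 to 0.15), Bmpr1b (-0.059 to 0.20), S100b (-0.062 to 0.14) and Hepacam (-0.051 to 0.024).

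Other settings changed the sign of Gjb6, Fabp7, Bmpr1b, S100b and Hepacam again, and of Gpc5, Cd44, Cbs and Mlc1, which kept their sign whichever mouse was left out. Bmpr1b was -0.00063 with the mean of probe sets and -0.020 without the 2 arrays of highest 3′ difference, where Gpc5 was 0.012. Quantile normalization gave -0.0011 for Gjb6 and -0.0022 for Fabp7, and median centring -0.015 for both Fabp7 and S100b. Housekeeping centring gave Gjb6 -0.043, Fabp7 -0.073, Bmpr1b -0.053 and S100b -0.072. With the cortex mean Cd44 was 0.16, Cbs 0.12, Mlc1 0.0063, Hepacam 0.012 and Bmpr1b -0.15. With the choroid plexus mean Gjb6 and Bmpr1b were each -0.080 and S100b -0.077, and without the 3 arrays Gjb6 was -0.028, Fabp7 -0.069 and S100b -0.14. The median of all genes was 0.049 in the brighter 50%, 0.0067 after quantile normalization and 0.00059 with the cortex mean. The number of arrays limits all of these fits, and a probe set near background, such as that of Lcn2, may understate a change.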
